A study of Mus musculus with 82 samples.

Results

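The 9 genes described here, Atf4, Ddit3, Trib3, Asns, Chac1, Psat1, Phgdh, Shmt2 and Mthfd2, were taken by name from 24746 curated RefSeq genes of the mouse because they belong to the integrated stress response and to the serine and one-carbon pathway that this response controls. Nascent RNA was measured in V6.5 mouse embryonic stem (ES) cells, a line grown on gelatin in serum with leukaemia inhibitory factor, non-essential amino acids and glutamine, and the labels name no treatment, so that the groups differed by assay and not by treatment. The assays were scGRO-seq (76 deposited read lists), in which nuclei were sorted singly into wells and each well was given its own barcode, inAGTuC (4 libraries), the same chemistry on many intact nuclei per well, and AGTuC (2 libraries), a bulk run-on in which more of the detergent sarkosyl was used and the nuclear membrane was opened. In all 3, RNA polymerases extended their transcripts in isolated nuclei with propargyl nucleotides and the labelled RNA was captured by click chemistry. A read is thus meant to mark a polymerase and not a stored mRNA, and how many reads had another source was not tested. No group of stressed or amino acid-starved cells was analysed here.

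The integrated stress response begins with kinases that phosphorylate the translation factor eIF2, which lowers protein synthesis in general while the mRNA of Atf4 is translated more. ATF4 is a bZIP transcription factor that acts with C/EBP partners on genes for amino acid synthesis, transport and tRNA charging, and on genes that feed back on the response or promote cell death. Serine is made from a glycolytic intermediate by PHGDH, PSAT1 and PSPH, and SHMT2 and MTHFD2 then pass its carbon into the mitochondrial folate cycle, which serves purine synthesis in dividing cells.

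Of the scGRO-seq batches, 10 were used. The paper's text reports more batches than these and names none, and it gives 10 batches for the cells of its cell cycle clusters. After reads repeated between libraries, cells with few molecules and libraries with few such cells were left out, 2518 cells from 35 libraries in these batches remained, with 11637172 unique molecular identifiers (UMIs), 1177 to 51431 per cell. The batches held 223119 to 4928371 UMIs, the inAGTuC libraries 623265 to 1462003 reads and the AGTuC libraries 2231837 and 4755740 reads. Only 254 distinct cell barcodes occurred among the kept cells, so barcodes recur between libraries and a cell was defined by its library and barcode together. The ES cell markers Pou5f1, Sox2, Nanog, Zfp42, Esrrb and Tdgf1 had reads in every sum but 1, in which 5 of 6 did, and together reached 1927 to 1990 reads per 1000000 body reads (RPM) in AGTuC, 629 to 1082 in inAGTuC and 477 to 1382 in scGRO-seq. Summed fibroblast markers (Col1a1, Col1a2, Col3a1, Thy1, Dcn) lay at 5.5 to 7.97, 14.7 to 55.1 and 6.84 to 88.6 RPM in the same order, with Col1a2, Col3a1 and Dcn at 0 in AGTuC. Summed markers of differentiated cells (Gata4, Gata6, Sox17, T, Foxa2, Pax6) lay at 33.9 to 37.2, 58.9 to 170.0 and 33.9 to 192. By sum, ES cell markers were thus higher and the other lists lower in AGTuC than in both other assays, apart from scGRO-seq batches as low as AGTuC or nearly so. Of single genes, Thy1, Gata4 and Sox17 were higher per kb in AGTuC than in scGRO-seq, though lower than in inAGTuC. The remaining fibroblast and differentiation markers were lower in AGTuC than in both. What part the marker differences had in the differences between assays below was not tested. Both AGTuC libraries came from 1 experiment, so that assay and experiment cannot be told apart, and the 4 inAGTuC libraries came from 3, with replicates 1 and 2 both from Exp208, and where libraries share a culture, which the labels do not say, p-values measure only the spread between libraries.

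Promoter sequence was examined first, because the assays differ most at the starts of genes. All 9 genes matched the RefSeq promoter table of GRCm38.p6 (10 entries, as Psat1 has 2 starts). The C/EBP-ATF composite element, written TGATGNAA and searched on both strands of the 250 bases before each start, was present in 3.45% of 32841 promoter entries and in 2 of the 9 genes, Asns and Chac1. The full cAMP response element TGACGTCA was in 1.55% of entries and in 0 of the 9, its shorter core TGACG, which lies within it, in 17.8% and in 4 (Atf4, Trib3, Asns, Chac1), CCAAT in 33.9% and in 6 (Atf4, Ddit3, Chac1, Psat1, Phgdh, Mthfd2), GGGCGG in 32.7% and in 4 (Trib3, Asns, Chac1, Psat1), and TATAAA in 12.4% and in 2 (Trib3, Phgdh). These matches are descriptions of letters and not of bound sites. The 5 upstream sequences printed here belong to the genes on which the results turn, and each reads 5′ to 3′ along the gene and ends at the base before the annotated start. Capitals mark TGATGNAA or CCAAT on either strand.
Atf4: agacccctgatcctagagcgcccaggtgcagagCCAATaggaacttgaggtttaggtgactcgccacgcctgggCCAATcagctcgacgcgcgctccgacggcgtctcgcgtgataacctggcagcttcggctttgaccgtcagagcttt
Asns: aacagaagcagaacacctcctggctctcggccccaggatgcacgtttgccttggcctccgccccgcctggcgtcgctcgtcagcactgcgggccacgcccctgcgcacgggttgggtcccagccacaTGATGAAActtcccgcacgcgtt
Chac1: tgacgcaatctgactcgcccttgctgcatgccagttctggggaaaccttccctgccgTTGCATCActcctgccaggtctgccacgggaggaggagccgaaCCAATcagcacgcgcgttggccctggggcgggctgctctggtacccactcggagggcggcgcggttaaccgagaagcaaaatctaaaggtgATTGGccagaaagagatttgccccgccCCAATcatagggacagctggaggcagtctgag
Psat1: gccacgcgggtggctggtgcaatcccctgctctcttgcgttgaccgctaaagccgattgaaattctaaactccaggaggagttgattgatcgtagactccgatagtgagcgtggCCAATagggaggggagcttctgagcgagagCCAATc
Mthfd2: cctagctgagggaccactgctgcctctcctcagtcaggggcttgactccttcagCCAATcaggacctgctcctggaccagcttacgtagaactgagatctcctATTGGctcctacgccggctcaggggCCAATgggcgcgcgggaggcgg
The Atf4 stretch is chr15:80255034-80255183 on the plus strand, with CCAAT at positions -117 and -76 from the start. That of Asns is chr6:7693210-7693359 on the minus strand, and its composite element occupies positions -23 to -16. That of Chac1 is chr2:119350992-119351241 on the plus strand, drawn longer so that the reverse-strand composite element at positions -193 to -186 is seen beside 3 CCAAT matches. Those of Psat1 (chr19:15925060-15925209) and Mthfd2 (chr6:83317605-83317754) lie on the minus strand and hold 2 and 3 CCAAT matches.

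Gene body levels were compared first, as sense reads per kb and per 1000000 body reads (RPM per kb), with 500 bases removed at either end of the gene. Atf4 stood far above the other 8 genes in AGTuC and was lower in inAGTuC. The other 8 ranked above 62.3% (Mthfd2) to 92.6% (Shmt2) of genes in AGTuC. In scGRO-seq they ranked above 44.9% (Chac1) to 96.0% (Shmt2). Atf4 (chr15:80255184-80257545, plus strand), the transcription factor at the centre of the response, measured 76 and 90.3 in the 2 AGTuC libraries. In the 4 inAGTuC libraries its level was 14.4, 25.8, 15.2 and 14.4, and in the 10 scGRO-seq batches it ran from 0 (0 reads in Exp260, which allows a level of up to 14.9) through a median of 10.4 to 20.1. The AGTuC libraries thus did not overlap either other assay, whereas inAGTuC and scGRO-seq overlapped. How many of all genes separate the assays in this way was not counted. Atf4 ranked above 99.8% of genes in AGTuC, 99.2% in inAGTuC and 98.5% in scGRO-seq.

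Of the genes for regulators downstream of ATF4, Ddit3 (chr10:127290793-127296288, plus strand), which encodes the pro-apoptotic factor CHOP, measured 4.48 and 5.71 in AGTuC. Its inAGTuC levels were 5.22, 4.89, 5.62 and 0.818, and its scGRO-seq levels 0.689 to 6.50 with a median of 1.45, so that all 3 assays overlapped. Trib3 (chr2:152337425-152344060, minus strand), a pseudokinase that restrains ATF4 and CHOP, measured 6.01 and 4.87 in AGTuC. In inAGTuC it was at 2.08, 3.90, 2.85 and 0.435, all below AGTuC, and in scGRO-seq it ran from 0 (Exp260, limit 3.61) through 1.16 to 5.15. Chac1 (chr2:119351242-119354326, plus strand), which degrades glutathione, measured 2.64 and 2.76 in AGTuC but rested on 0 to 5 reads per inAGTuC library and 0 to 3 per batch.

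Asns (chr6:7675165-7693209, minus strand), the enzyme that makes asparagine and a textbook ATF4 target, measured 6.45 and 5.87 in AGTuC. Its inAGTuC levels were 6.65, 4.39, 2.29 and 3.45, and scGRO-seq gave 1.70 to 5.42 with a median of 3.15, below both AGTuC libraries in every batch. Among serine synthesis enzymes, Psat1 (chr19:15905123-15925059, minus strand), the transaminase of the pathway, measured 4.40 and 5.23 in AGTuC, 5.99, 4.88, 4.85 and 2.59 in inAGTuC and 1.45 to 5.32 in scGRO-seq, with all 3 overlapping. Phgdh (chr3:98313171-98339969, minus strand), the first enzyme of the pathway and the longest gene of the 9, measured 3.20 and 3.07 in AGTuC, 2.12, 3.24, 1.51 and 1.76 in inAGTuC and 0.858 to 3.25 in scGRO-seq.

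Shmt2 (chr10:127517123-127522444, minus strand), which moves a carbon from serine to folate, measured 6.36 and 9.32 in AGTuC, 2.71, 8.14, 6.38 and 4.54 in inAGTuC and 1.95 to 11.8 in scGRO-seq. Mthfd2 (chr6:83305704-83317604, minus strand), which oxidises that folate in mitochondria, measured 2.77 and 2.11 in AGTuC, 3.23, 3.23, 2.74 and 0.675 in inAGTuC and 0.853 to 3.08 in scGRO-seq. Neither gene separated the assays. In AGTuC the order by mean level was Atf4 (83.2 ± 10.1 SD, n = 2), Shmt2 (7.84 ± 2.09), Asns (6.16 ± 0.41), Trib3 (5.44 ± 0.809), Ddit3 (5.10 ± 0.868), Psat1 (4.82 ± 0.589), Phgdh (3.13 ± 0.0882), Chac1 (2.70 ± 0.0874) and Mthfd2 (2.44 ± 0.468). Each neighbouring pair from Shmt2 to Psat1 overlapped between the libraries, as did Chac1 and Mthfd2.

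**Figure D1:**
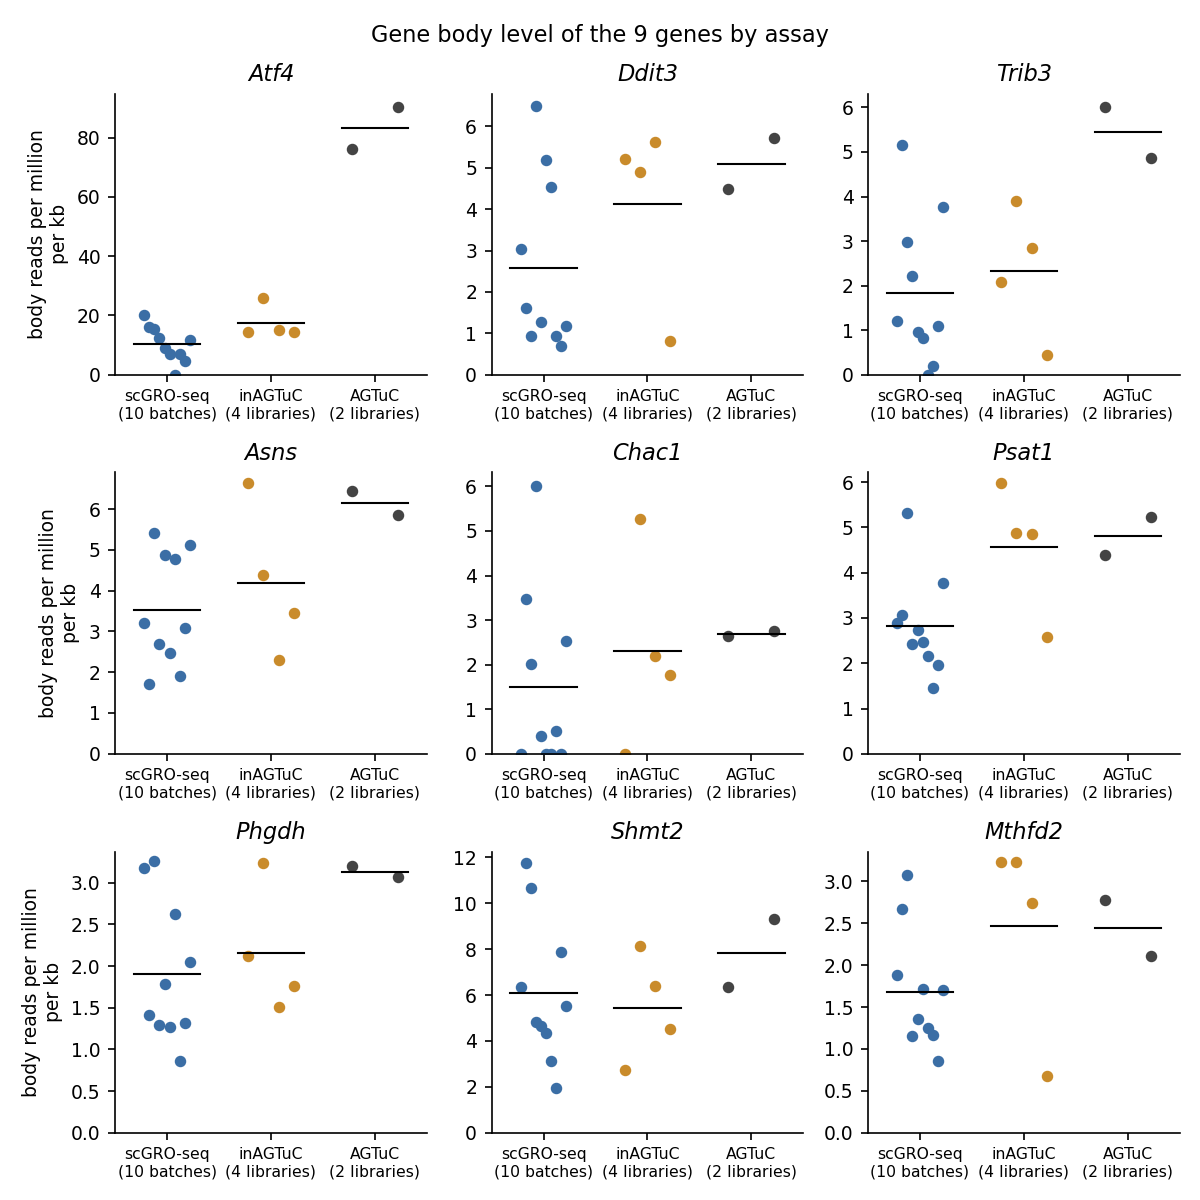
Gene body level (RPM per kb, sense reads) of each gene in the 10 scGRO-seq batches, 4 inAGTuC libraries and 2 AGTuC libraries. Each point is 1 batch or library and each line a mean, axes differ between panels, and Atf4 in AGTuC (76 and 90.3) is the 1 case far above every point of the other assays.

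The fit across all genes (limma voom, Benjamini-Hochberg adjustment) asked whether a level differed between assays. Between inAGTuC and AGTuC it called 33.9% of 14815 genes (2518 lower and 2504 higher in inAGTuC), and of the 8 genes tested (Chac1 had under 50 reads) it called 1, Atf4. Atf4 was lower in inAGTuC by 4.73-fold (log2 difference -2.24 ± 0.381 SE, adjusted p = 0.000464, 4 against 2 libraries). With the experiment as a random block, chosen after seeing the data, it was -2.39 (adjusted p = 0.00189) and the calls over all genes fell to 3180. In the alternatives run the log2 difference of Atf4 ran from -2.43 to -2.0 with adjusted p from 0.000373 to 0.0123. For Trib3 the log2 difference was -1.62 ± 0.689 (adjusted p = 0.0731), and it was called with all deposited reads (-1.80, adjusted p = 0.0474). The other 6 had differences of -0.83 (Ddit3) to -0.21 (Psat1), with adjusted p from 0.147 to 0.666, which does not show equal levels at these read counts. The median over the 8 was -0.63 and over all genes tested -0.18. Fewer cells that transcribe a gene and less transcription per cell cannot be told apart in bulk libraries.

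Between scGRO-seq and inAGTuC the same fit called 0 of 14815 genes, a background of 0.0%, with 812 at an unadjusted p under 0.05, and 0 of the 8 genes. Differences of scGRO-seq minus inAGTuC were all below 0, from -0.88 ± 0.39 for Atf4 and -0.69 ± 0.293 for Psat1 to -0.12 ± 0.314 for Asns, with adjusted p from 0.858 to 0.969. The median of the 8 was -0.39 against -0.13 over all genes. When inAGTuC replicate 4 was left out, the fit called 123 genes, none of the 9 among them. Batch Exp208 held both assays, and within it, with no test, the scGRO-seq sum minus the mean of inAGTuC replicates 1 and 2 (log2 of levels + 1) was -1.65 for Ddit3, 1.00 for Shmt2 and between -0.31 and 0.27 for the other 7.

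The promoter window, the first 500 bases of the gene, gave the second comparison, which asked how far each assay records polymerases near the start. In AGTuC the median gene had 28.9% of its promoter and body reads in that window, against 4.76% in inAGTuC and 3.37% in scGRO-seq (10475 genes), so a high promoter share is common to AGTuC as a whole. The 9 genes spread widely around this median. Chac1 had 72.1% of its AGTuC reads there (49 of 68 reads, 95% Wilson interval 60.4 to 81.3), with 70.0% and 72.9% in the libraries, Trib3 48.7% (41.8 to 55.7), with 45.6% and 50.4%, and Mthfd2 44.4% (36.8 to 52.4), with 41.1% and 46.4%. Those 3 lay above the median gene. Below it lay Ddit3 (21.6%), Shmt2 (19.9%), Asns (17.6%), Atf4 (13.7%), Psat1 (11.5%) and Phgdh (9.12%). This share is not corrected for gene length and is higher in a short gene. As promoter over body density, per base, the median gene in AGTuC was at 16.3, and of the 9 genes Mthfd2 (17.4) was above it. Chac1 (10.8), Trib3 (10.7), Asns (7.29), Phgdh (5.18), Psat1 (4.93), Ddit3 (2.47), Shmt2 (2.14) and Atf4 (0.432) were below. The Wilson intervals cover counting error only.

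In the other assays the shares were mostly smaller and rested on few reads. Chac1 had 37.5% in inAGTuC (6 of 16 reads, 18.5 to 61.4) and 28.6% in scGRO-seq (4 of 14 reads, 11.7 to 54.7). Trib3 had 24.1% and 9.76%, Mthfd2 13.7% and 11.8%, Ddit3 16.7% and 4.76%, and Asns 3.03% and 3.32%. Psat1 stood at 2.58% in inAGTuC and 6.18% in scGRO-seq, and Phgdh at 0.935% and 3.83%. In these 7 genes both values lay below AGTuC, although with all deposited reads Ddit3 had 21.7% in scGRO-seq against 21.2% in AGTuC. The 2 exceptions were Atf4, with 9.80% in inAGTuC (4.26 to 21) and 14.5% in scGRO-seq (8.28 to 24.1), and Shmt2, with 27.7% in inAGTuC (18.3 to 39.6) and 7.56% in scGRO-seq. The AGTuC value was therefore above scGRO-seq in 8 of 9 genes and above inAGTuC in 8 of 9. This count was not made over all genes, where the median share was likewise highest in AGTuC. For Atf4 the order turned with all deposited reads, where it had 16.5% in inAGTuC and 11.4% in scGRO-seq against 13.6% in AGTuC.

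**Figure D2:**
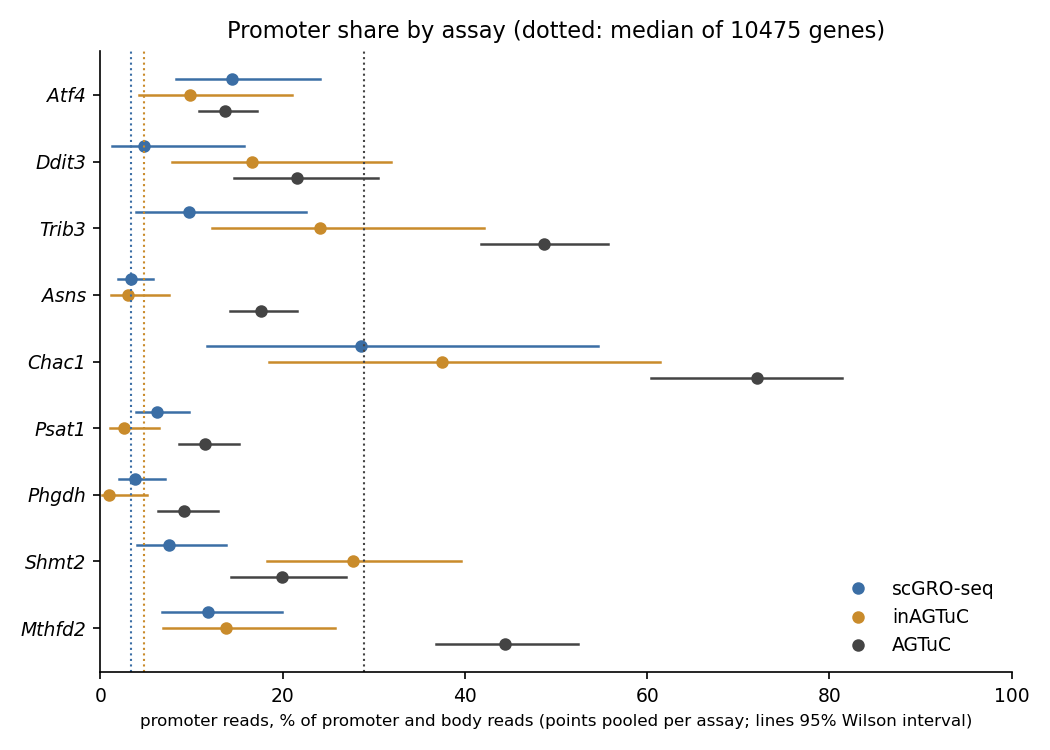
Share of promoter reads (percent of promoter and body reads, pooled per assay) for the 9 genes. Points are pooled shares, lines 95% Wilson intervals, and dotted lines the medians of 10475 genes (28.9% in AGTuC, 4.76% in inAGTuC, 3.37% in scGRO-seq). Chac1, Trib3 and Mthfd2 lie right of the AGTuC median and the other 6 left of it, on a share that is not corrected for gene length; per base, Mthfd2 alone is above the median gene.

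Tested as promoter over body within each library, 49.9% of 10475 genes were called in inAGTuC against AGTuC (5204 lower and 20 higher) and 53.3% in scGRO-seq against AGTuC (5553 lower and 34 higher). Genes needed 20 promoter reads summed over the 3 assays, which can favour those with many in AGTuC. Mthfd2 had 68 there, 7 in inAGTuC and 11 in scGRO-seq. With no minimum, 18695 genes gave 5342 lower and 297 higher in inAGTuC (median -1.74). In scGRO-seq 5499 were then lower and 664 higher (median -1.44). With the minimum, 1 of the 9 genes was called in each comparison, and both times it was Mthfd2, which was lower. Its log2 difference was -2.61 ± 0.997 in inAGTuC (adjusted p = 0.0268) and -2.12 ± 0.887 in scGRO-seq (adjusted p = 0.0384). In other settings further genes passed, all of them lower. With all deposited reads, Asns (-2.95, adjusted p = 0.00682) and Phgdh (-2.35, adjusted p = 0.0375) were called in inAGTuC, and Asns (-2.59, adjusted p = 0.00459), Chac1 (-2.46, adjusted p = 0.0296) and Trib3 (-2.09, adjusted p = 0.0233) in scGRO-seq, beside Mthfd2 in both. Asns was also called in inAGTuC with the window from 500 bases before the start and without inAGTuC replicate 3, Chac1 with a 250-base promoter, and Chac1 and Phgdh without inAGTuC replicate 1. In scGRO-seq, Asns and Chac1 were called with all barcodes. The Mthfd2 call in inAGTuC was lost without inAGTuC replicate 1 (-2.15) or replicate 4 (-2.33), and either call was lost without either AGTuC library, where the values lay between -2.75 and -1.97. The scGRO-seq call was lost too when batches outside the 10 were added (-1.26, adjusted p = 0.41) and with a promoter of 250 bases (-2.01, adjusted p = 0.0581). Asns came close in inAGTuC, at -2.34 ± 1.03 (adjusted p = 0.0505), followed by Psat1 at -2.09 ± 0.991 (adjusted p = 0.0697). The median of the 9 was -1.72 in inAGTuC and -1.14 in scGRO-seq, and over all genes -2.38 and -2.19.

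Atf4 in scGRO-seq and Shmt2 in inAGTuC gave the differences above 0 among the 9 genes. For Atf4 they were -0.18 ± 1.02 in inAGTuC (adjusted p = 0.881) and 0.75 ± 0.909 in scGRO-seq (adjusted p = 0.471), and the sign of the first turned in 3 alternatives and of the second in 1. For Shmt2 they were 0.53 ± 1.02 (adjusted p = 0.654) and -1.14 ± 0.907 (adjusted p = 0.269). Standard errors were near 1 on the log2 scale, and differences as large as -2.34 (Asns) and -2.09 (Psat1) in inAGTuC were not called, so that differences below about that size were mostly not detectable in these genes.

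The position of reads around the start separated the genes in AGTuC. For Chac1, 22 of 83 sense AGTuC reads (26.5%) lay in the single 50-base bin that begins 50 bases after the start. The same bin was the fullest of Mthfd2, with 26 of 158 reads (16.5%), and of Phgdh, with 16. Shmt2 had no single fullest bin, since those at 50, 100 and 550 bases held 6 of its 165 reads each. For Trib3 (34 reads) and Ddit3 (11 reads) it was the first bin. Psat1 had its fullest promoter bin at 100 bases, with 13 reads, and Asns at 250 bases, with 14. Atf4 differed from all of these, since its fullest AGTuC bin lay 850 bases after the start and held 7.08% of 678 reads.

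Neighbouring genes bear on some of these counts. Mief1 ends 1812 bases before Atf4 on the same strand, and 137 AGTuC reads lay between 2500 and 500 bases before the Atf4 start, at 0.239 of the density of its body. Mars1 overlaps the end of Ddit3 on the opposite strand, and the AGTuC reads over Ddit3 were 215 antisense and 121 sense. Sense reads in the stretch before Ddit3 were at 1.97 times the density of its body, with Mbd6 starting 1775 bases away on the other strand. How far these neighbours fed reads into Atf4 and Ddit3 was not tested. In scGRO-seq, 12 and 4 sense reads of Asns lay in the bins that begin 650 and 600 bases before the annotated start, whereas AGTuC had 0 reads between 2500 and 500 bases before it.

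**Figure D3:**
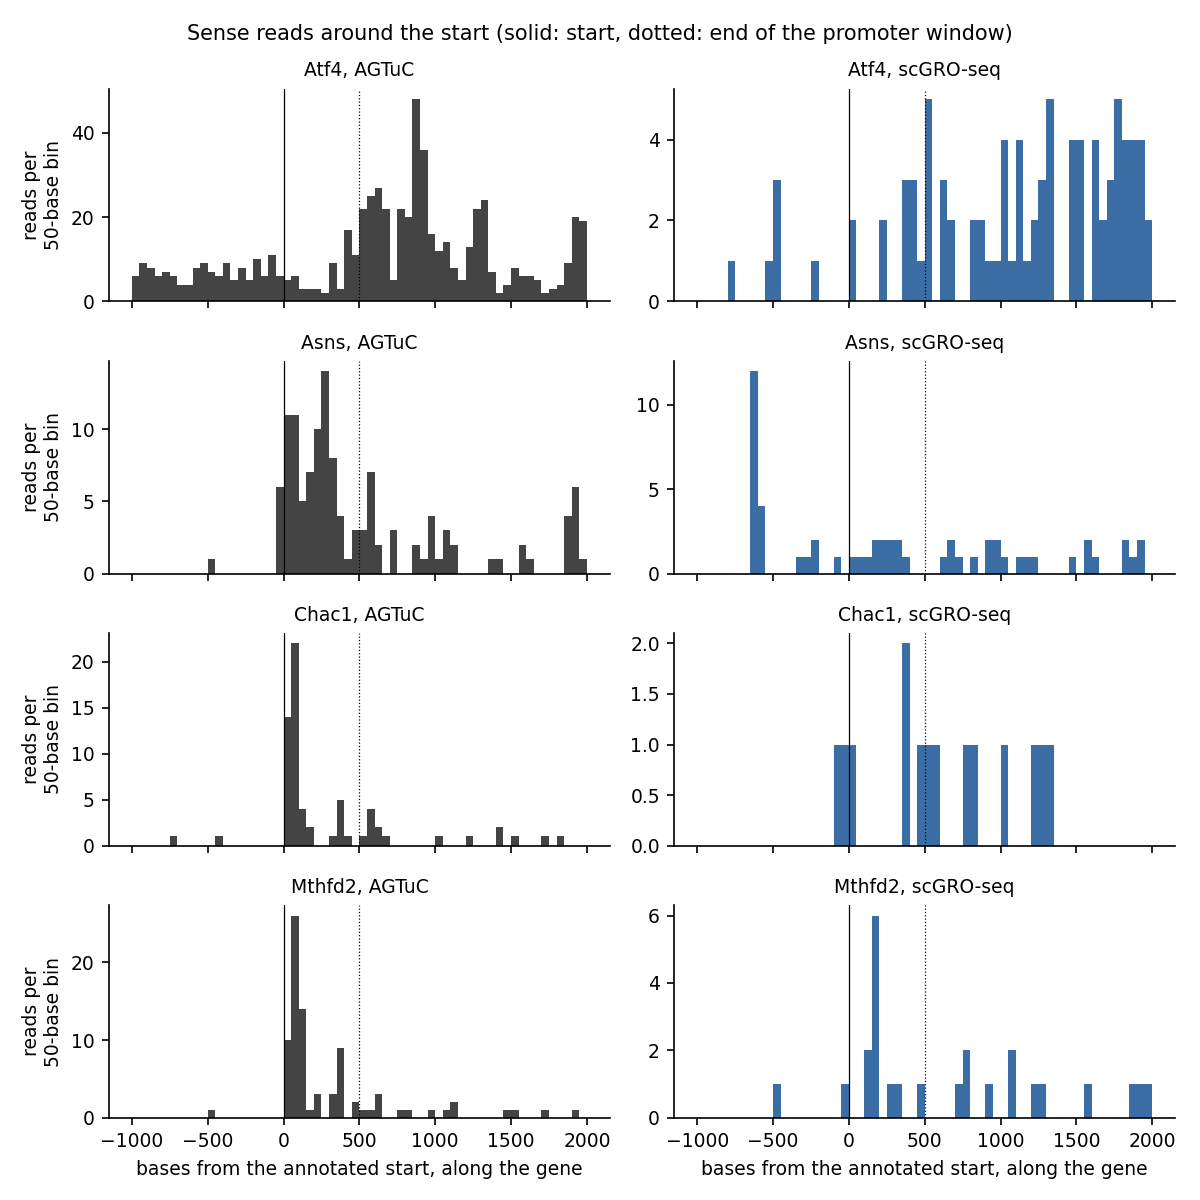
Sense reads in bins of 50 bases from 1000 before to 2000 after the annotated start for Atf4, Asns, Chac1 and Mthfd2, pooled over the AGTuC libraries (left) and the scGRO-seq batches (right). Solid lines mark the start, dotted lines the end of the 500-base promoter window, and vertical axes differ. Chac1 and Mthfd2 have their highest AGTuC bar just after the start, whereas that of Atf4 lies beyond the window.

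Beyond the end of the gene the assays differed again. Density in the 5 kb after the annotated end, over body density, had an all-gene median of 1.43 in AGTuC, 0.384 in inAGTuC and 0.406 in scGRO-seq. In AGTuC it was 2.85 for Chac1, 2.82 for Asns, 2.63 for Shmt2, 1.72 for Mthfd2, 1.46 for Phgdh, 1.29 for Psat1, 1.08 for Trib3 (whose same-strand neighbour Rbck1 starts 4786 bases on, within that stretch), 0.652 for Atf4 and 0.427 for Ddit3. Ddit3 ran the other way, at 1.01 in scGRO-seq and 0.540 in inAGTuC.

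Antisense reads made up 5.48% of the reads over the median gene in AGTuC, 31.7% in inAGTuC and 30.9% in scGRO-seq. Over the 7 genes with no overlapping neighbour (all but Ddit3 and Shmt2) the share was 4.07% and 4.24% in AGTuC, 15.7% to 56.1% in inAGTuC and 10.4% to 41.8% in scGRO-seq, so that all 14 other values exceeded AGTuC. Upstream antisense reads within 500 bases of the start, as divergent promoters give, numbered 38 at Psat1, 30 at Asns, 29 at Atf4 and 21 at Chac1 in AGTuC, and 0 to 9 at Mthfd2, Trib3, Phgdh and Shmt2. The number was highest at Ddit3, with 73. Mbd6 starts 1775 bases away on that strand but runs away from Ddit3, so these reads lie before the Mbd6 start. Mars1, on the same strand, overlaps the end of Ddit3. The source of the 73 reads was not tested.

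The part of the reads in exons differed between the genes. Over the 9 genes together the mean share was 35.35% in scGRO-seq batches, 33.95% in inAGTuC libraries and 35.62% in AGTuC libraries. Asns had 35.8% of its scGRO-seq reads and 35.3% of its inAGTuC reads in exons, which cover 10.9% of the gene, against 13.4% in AGTuC. Psat1 had 29.7%, 23.6% and 14.4% in the same order, with exons over 12.5% of the gene. Atf4 had 83.3%, 80.3% and 60.03%, with exons over 73.2% of the gene. The share of Shmt2 was likewise lower in AGTuC than in both other assays. The median gene ran the other way, at 16.3%, 15.3% and 31.2%. Phgdh, at 7.66%, 3.74% and 9.30%, and Mthfd2, at 36.5%, 34.5% and 44.3%, had more in AGTuC, as did Ddit3, Trib3 and Chac1. None of these shares was tested.

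**Figure D4:**
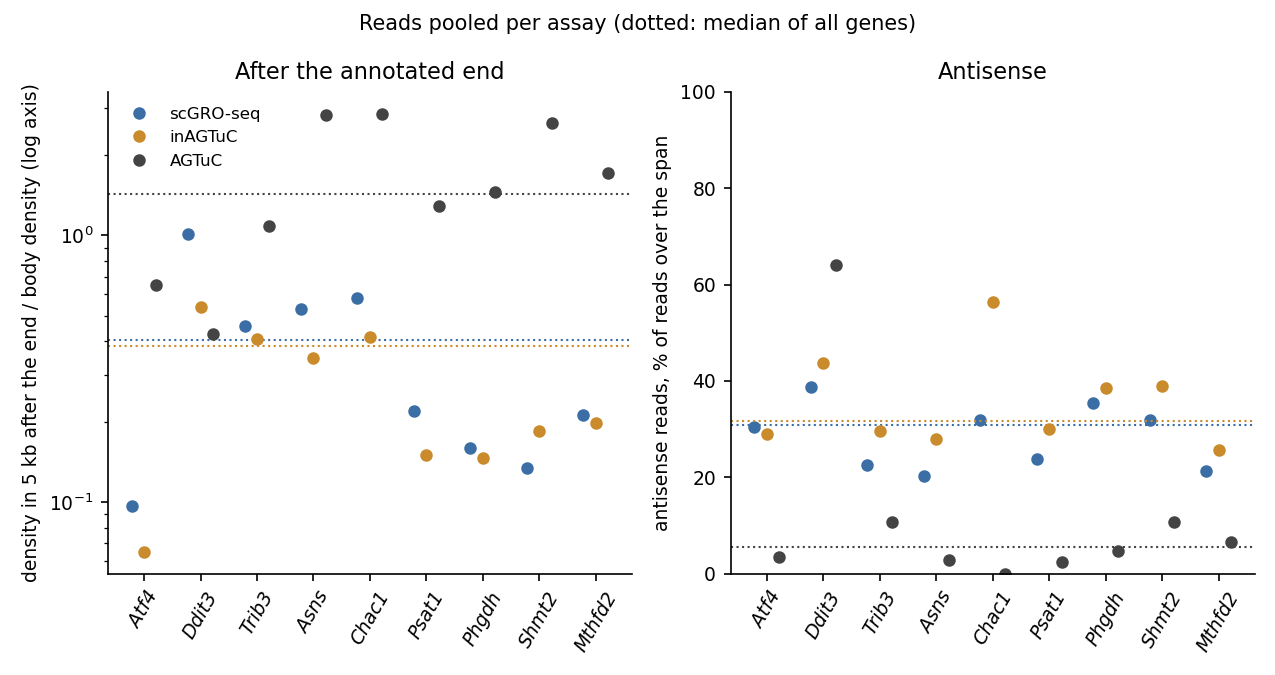
Left, density of sense reads in the 5 kb after the annotated end over body density (log axis); right, antisense reads as a percent of all reads over the gene. Points are pooled per assay and dotted lines are medians of all genes. AGTuC lies above the other assays on the left for all genes but Ddit3, and below them on the right for all but Ddit3, where Mars1 overlaps.

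In single cells, each of the 9 genes was seen in a minority of the 2518 kept cells. Asns had a UMI in 13.1% (331 cells, Wilson interval 11.9 to 14.5), Psat1 in 10.7%, Phgdh in 8.94%, Shmt2 in 5.12%, Atf4 in 4.33%, Mthfd2 in 3.57%, Ddit3 in 1.79%, Trib3 in 1.63% and Chac1 in 0.596% (15 cells). The interval covers counting error over pooled cells and not the spread between batches. For Asns the mean over batches was 10.6% (SD 5.13), and 184 of its 331 cells came from Exp236. The order of the genes follows their length as well as their level: Atf4, the highest per kb, is the shortest of the 9. For scale, the ES cell markers Zfp42 and Pou5f1 had a UMI in 24.5% and 7.15% of cells, and the 5 fibroblast genes, taken as the background at the same depth because the cells are the same, in 0.675% (Thy1), 0.755% (Col3a1), 1.43% (Col1a2), 1.47% (Dcn) and 4.49% (Col1a1). Asns, Psat1, Phgdh and Shmt2 lay above all 5. Atf4, Mthfd2, Ddit3 and Trib3 lay above 4 of them and below Col1a1, and Chac1 lay below all. All these shares leave out reads that also occurred in another library. With all deposited reads, 3044 cells were kept and the shares of all 9 genes were higher. Asns then had 20.3% (841 UMIs against 383), Psat1 16.95% (636 against 300) and Atf4 8.21% (289 against 114).

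The antisense strand served as a second measure of that background, except at Ddit3 and Shmt2, where Mars1 and Ndufa4l2 overlap on that strand. Cells with an antisense UMI were fewer than cells with a sense UMI for all 9 genes, by 1.55 times for Ddit3 (45 against 29 cells), 1.91 for Phgdh (225 against 118), 2.32 for Atf4 (109 against 47), 3.42 for Trib3 (41 against 12) and 3.76 for Asns (331 against 88). The other genes lay between, at 2.14 for Chac1, 2.15 for Shmt2, 2.96 for Psat1 and 3.46 for Mthfd2. Because Col1a1 lay above their shares of cells, the shares for Atf4, Mthfd2, Ddit3, Trib3 and Chac1 were not read as a measure of which cells transcribe these genes. The shares are not corrected for gene length. Per kb in scGRO-seq, Atf4 (9.18), Ddit3 (1.71) and Mthfd2 (1.45) lay above Col1a1 (1.37), the highest of the fibroblast genes. Trib3 (1.26) and Chac1 (0.922) lay below Col1a1 and above Thy1 (0.458), the next highest. Shmt2 (4.89), Asns (3.94), Psat1 (2.62) and Phgdh (1.68) lay above Col1a1. Phgdh, the longest gene, was thus lower per kb than Atf4 and Ddit3, and its ratio of sense to antisense cells was below that of Atf4. Its larger share of cells therefore does not set it farther from background than these genes.

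Batches differed in depth, so shares per batch were given with and without thinning each cell to 1000 UMIs. Asns ran from 4.30% (Exp160) to 22.7% of cells (Exp236), and after thinning from 1.22% (Exp260b) to 4.92% (Exp208). Psat1 ran from 5.08% to 17.2%, and after thinning from 1.27% to 5.40%, while Phgdh ran from 4.15% to 16.4% and after thinning from 0.972% to 5.17%. Atf4 ran from 0.847% (Exp260) to 6.45%, and after thinning from 0.36% (Exp260) to 3.24% (Exp156). Mthfd2 ran from 1.19% to 6.72%, and after thinning from 0.239% (Exp211) to 1.96% (Exp208). Trib3 and Chac1 had 0 UMIs in the 118 cells of Exp260, which allows a share of up to 2.54%. At least 1 of the 9 genes was seen in 37.0% of all cells, 21.5% to 50.7% per batch.

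Across batches the fit over libraries called 31.5% of 11729 genes, and 1 of the 6 genes tested (Ddit3, Trib3 and Chac1 had under 50 UMIs), which was Phgdh. The fitted levels of Phgdh spanned 1.96 on the log2 scale (adjusted p = 0.0158), with the highest body level in Exp208 (3.25), Exp156 (3.18) and Exp260 (2.63) and the lowest in Exp260b (0.858). Exp260b also had the highest sum of fibroblast markers (88.6 RPM) and Exp156 the highest sum of ES cell markers (1382 RPM) and the lowest of fibroblast markers (6.84 RPM), and what part this had was not tested. The call was lost without Exp260b (1.33, adjusted p = 0.28) or Exp156 (1.92, adjusted p = 0.137), both left out after seeing the data, and with median-of-ratios scaling (1.65, adjusted p = 0.0521). Asns (1.58, adjusted p = 0.11), Psat1 (1.80, adjusted p = 0.162), Shmt2 (2.29, adjusted p = 0.239), Atf4 (2.02, adjusted p = 0.525) and Mthfd2 (1.53, adjusted p = 0.758) did not pass. With all deposited reads Asns (adjusted p = 0.0172), Psat1 (0.00987), Ddit3 (0.0467) and Trib3 (0.00304) were called beside Phgdh, Asns passed with further batches added (0.0218) and Trib3 with no minimum of reads (0.00354).

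Co-occurrence asked whether cells with reads of one gene more often had reads of another than when reads were permuted among the cells of a library with UMIs per cell kept. Over the 36 pairs of the 9 genes, the cells with both genes summed to 421 against 397 expected, a ratio of 1.06 in which a cell with 3 or more of the genes counts once for each pair, and 20 pairs lay above expectation. Asns and Phgdh were together in 61 cells against 45.9 expected (1.33 times, p = 0.019) and Trib3 and Psat1 in 14 against 7.13 (1.96 times, p = 0.0148), both by the upper Poisson tail. Neither passed adjustment over all pairs (adjusted p = 1.0), where 0 of 170911630 pairs of genes were called (0.0%) and 1.43% had an unadjusted p under 0.05. With all deposited reads, Asns and Phgdh were together in 135 cells against 122.5 expected, and Trib3 and Psat1 in 19 against 16.9. Within the first 10 kb, Asns and Phgdh were at 8 against 8.41, and Trib3 and Psat1 at 9 against 2.91. Asns and Psat1, at 60 cells against 59.8, and Psat1 and Phgdh, at 40 against 37.6, were near expectation. Shmt2 and Mthfd2, neighbours in the folate pathway, shared 6 cells against 7.26.

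Cells with several of the genes followed the permuted numbers closely. At least 2 of the 9 were seen in 245 cells against 245 expected (244.5 before rounding), at least 3 in 61 against 54.7 and 5 in 3 cells against 1.74, with 6 or more in 0. Several UMIs of 1 gene in a cell, which could mark polymerases that follow each other, were seen in 42 cells for Asns against 42.9 expected, 28 for Psat1 against 26, 9 for Shmt2 against 5.19, 8 for Phgdh against 15.8, 5 for Atf4 against 3.07 and 5 for Mthfd2 against 2.5. No test was made of these counts.

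**Figure D5:**
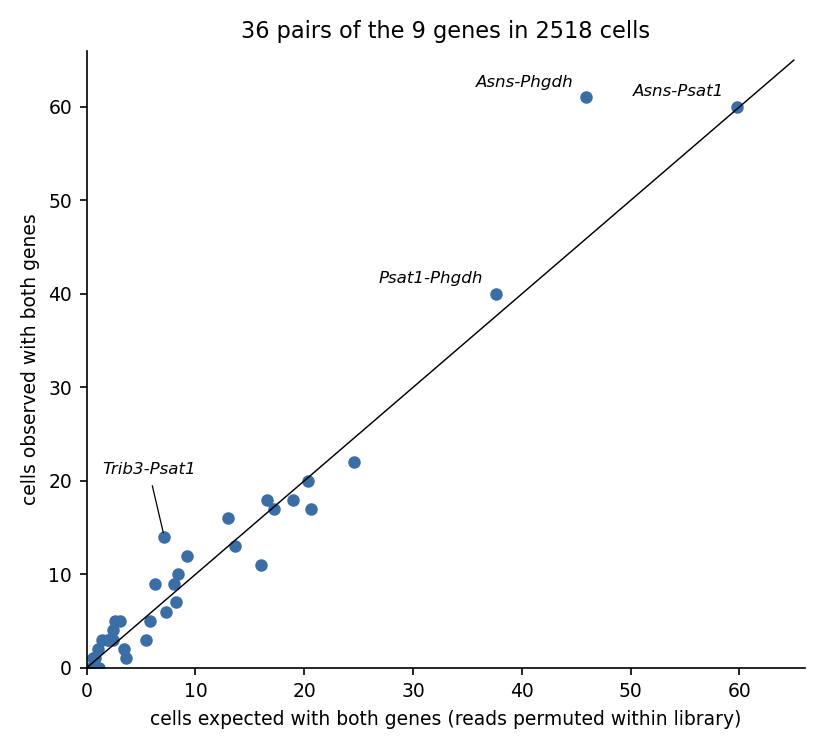
Cells with UMIs of both genes for the 36 pairs of the 9 genes, observed (vertical axis) against the number expected with reads permuted within library (horizontal axis), in 2518 cells. Each point is a pair and the line marks equality. Asns with Phgdh (61 against 45.9) and Trib3 with Psat1 (14 against 7.13) lie farthest above it for their size.

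The other genes of the pathway, 58 in 6 groups, gave the setting. Of the 56 tested, 0 differed between scGRO-seq and inAGTuC, while 2 were higher and 11 lower in inAGTuC than in AGTuC. Over all 14815 genes, 2504 were higher and 2518 lower in that comparison, together 33.9%. The 2 higher pathway genes, named after their values were seen, were Slc7a11, the cystine transporter (4.23 ± 1.14, adjusted p = 0.00774, with 23 inAGTuC body reads and 1 in AGTuC), and Aldh1l2, a mitochondrial folate enzyme (2.31 ± 0.736, adjusted p = 0.02). In inAGTuC Slc7a11 measured 0.151 RPM per kb, between the fibroblast genes Col1a2 (0.131) and Dcn (0.176), both at 0 in AGTuC. Aldh1l2 measured 0.402 there, below Col1a1 (0.516). How far background reads gave these differences was not tested. Over the pathway genes, the promoter over body ratio was lower than in AGTuC in 21 of 54 in inAGTuC and in 25 of 54 in scGRO-seq, against 49.9% and 53.3% of all genes called in either direction. Their median differences of promoter over body, -2.03 and -1.79, lay a little nearer to 0 than those of all genes.

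By group, counts of lower genes are to be read beside the 2518 of 14815 genes that were lower over all genes. Of 12 sensors and eIF2 subunits, 2 were lower in inAGTuC than in AGTuC, namely Eif2s1, the alpha subunit of eIF2 (-1.05), and Ppp1r15b, which helps to dephosphorylate it (-1.26). Of 7 further transcription factors and feedback genes tested, 3 were lower, namely Ddit4, an inhibitor of mTORC1 (-2.23), Eif4ebp1, a translation repressor (-1.23), and Sesn2 (-1.10). Among 7 amino acid transporters, 3 were lower, namely Slc3a2, the heavy chain shared by several transporters (-1.53), Slc7a1 (-1.13) and Slc7a5 (-0.97). Of 12 aminoacyl-tRNA synthetases, 3 were lower, Aars (-1.26), Yars (-1.20) and Eprs (-0.65), and of 11 enzymes of serine, folate and proline metabolism 0 were. None of 7 genes of the unfolded protein response outside ATF4 was called in either direction, with a median of 0.08 against -0.18 over all genes. Genes other than those of the next sentences were named after their values were seen.

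For scGRO-seq against inAGTuC, the 3 genes of each group with the smallest adjusted p, ties broken by the unadjusted p, had adjusted p from 0.858 to 0.9. Sensors were Eif2ak3 (-0.64 ± 0.322), Ppp1r15a (-0.68 ± 0.603) and Eif2ak2 (0.46 ± 0.423). Feedback genes were Sesn2 (-0.76 ± 0.353), Eif4ebp1 (-0.53 ± 0.279) and Jdp2 (-0.62 ± 0.389), and transporters Slc1a5 (-0.84 ± 0.393), Slc1a4 (-0.72 ± 0.391) and Slc7a5 (-0.40 ± 0.271). Of the 18 named this way, 16 were below 0. Of all 56 tested, 45 were below and 11 above 0, with a median of -0.24 against -0.13 over all genes. Synthetases were Cars (-1.04 ± 0.329), Lars (-0.57 ± 0.195) and Iars (-0.57 ± 0.208), and metabolic enzymes Pycr1 (-1.03 ± 0.529), Gpt2 (-0.79 ± 0.422) and Psph (-0.55 ± 0.351). The unfolded protein response gave Herpud1 (-0.98 ± 0.534), Atf6 (-0.29 ± 0.208) and Dnajb9 (0.62 ± 0.613). Across scGRO-seq batches 10 of 49 were called, against 31.5% of all genes, led by Aars (fitted range 2.60, adjusted p = 3.69e-05), Cars (2.68, adjusted p = 0.000147), which charge tRNA with alanine and cysteine, and Slc1a5 (2.23, adjusted p = 0.000522), a glutamine transporter.

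The mean level of the 9 genes without Chac1, which had under 50 reads, was compared with 5550 other genes with at least 500 body reads. Those whose log2 level followed this mean most closely over the 16 sums of reads were Scpep1 (Pearson r = 0.949), B230206L02Rik (r = 0.912) and Kank2 (r = 0.911). The sums share assay and depth, and all 3 genes, like the mean, were highest in AGTuC, at 7.34, 5.09 and 5.47 per kb against 2.60, 0.794 and 1.97 in scGRO-seq. Between the 9 genes themselves (Chac1 left out) the highest r was 0.834 for Psat1 and Mthfd2 and 0.771 for Atf4 and Trib3, and the lowest -0.0739 for Ddit3 and Shmt2.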

How the data were processed

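The authors mapped adaptor-trimmed reads to mm10 with Bowtie2 after removing ribosomal sequence, with Cutadapt, Flexbar and UMI-tools among the tools named, and deposited 82 lists of deduplicated reads, in which each line holds a position, strand, cell barcode and a mapping score. The deposited score was not used. Lines were counted per gene, library and barcode from the RefSeq annotation of GRCm38. The 9 genes, the pathway list and the markers were chosen with earlier results of these data known.

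Of the reads of the 10 scGRO-seq batches, 28.9% that also occurred in another library were left out, as was 1 scGRO-seq list of which 99.7% repeated an inAGTuC library. The 10 batches are a part of the scGRO-seq batches that the study made. Cells needed 1000 UMIs and 750 features (genes and enhancers), and libraries 24 such cells. Only 1670 enhancers, a part of the study's list, were at hand, so the feature minimum may be stricter than in the study. The UMI minimum alone kept 3647 cells. No doublet caller was run, since nuclei were sorted singly. Batches are sums of kept cells and served as replicates. The AGTuC libraries differed little more than sampling noise allows (chi-square per degree of freedom 1.14 over 12532 genes, against 5.25 to 17.1 between inAGTuC libraries) and were kept as 2.

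Levels and promoter over body ratios were fitted with limma voom (limma 3.58.1, R 4.3.3), all 3 assays in 1 fit, scaled to body reads, with at least 50 body reads, or 20 promoter and 20 body reads, per gene, spans of at least 1500 bases and an adjusted p under 0.05. Batches were compared by the F test over libraries. Gene pairs, each gene in 10 or more cells, were tested by the upper Poisson tail around the closed-form expectation. Procedures were tested on simulated data. Named genes were all 9, the 3 per pathway group with the smallest adjusted p between scGRO-seq and inAGTuC, the 3 of the whole list with the smallest across batches, and the 3 most like the mean level. Alternatives changed the reads, batches, cells, scaling, minimums, promoter window, permutation stratum or libraries, and a random block by experiment (limma's duplicateCorrelation) and the comparison of batches without Exp260b or Exp156 were added after seeing the data. Python 3.11.15 with numpy 2.4.6, pandas 2.3.3, scipy 1.17.1 and matplotlib 3.10.9 was used.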

Additional observations from a re-analysis of the deposited data

Results flagged for a closer look

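Of 53 groups of 4 to 10 values, 8 held a value far from the others for the range of the group. For independent groups of normal values about 1 in 20, or 2.65, would be flagged. Many groups here rest on few reads and some share reads, so the 8 cannot be set against that number. Atf4 body level was 25.8 in inAGTuC replicate 2 against 14.4 to 15.2 in the other inAGTuC libraries, and that of Ddit3 was 0.818 in inAGTuC replicate 4 against 4.89 to 5.62. Asns was seen in 22.7% of cells of Exp236 against 4.30% to 12.9% in the other batches, and after thinning to 1000 UMIs the highest batch was Exp208. Chac1 was seen in 2.70% of cells of Exp211 (3 cells) against at most 1.11%.

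The other 4 were promoter shares on few reads. Ddit3 had 12.5% in Exp211 (1 of 8 reads), Trib3 50.0% in Exp260b (1 of 2 reads), Asns 18.2% in Exp246 (2 of 11 reads) and Phgdh 6.67% in inAGTuC replicate 1 (1 of 15 reads), where the other inAGTuC libraries had 0.

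Outside the 10 batches, 306 cells of 5 libraries in 4 further batches passed the minimums, and the 9 genes had 38 UMIs in them. That was 0.27 per 10000 UMIs, against 1.18 in the 10 batches, a difference that was not tested.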

How the results depend on the processing

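Of 569 alternative values for single genes and shares, 502 were counted as unchanged. Another 17 turned sign, 11 lost a call, 16 gained one and 23 without a test moved by more than their spread. Unchanged meant the same sign and call for fitted values. For shares and other values without a test it meant a move within their spread or standard error, which was wide in genes with few reads. Some alternatives could not move a value. Counting UMIs within 50 bases once leaves the share of cells as it was, and the start with most AGTuC reads was the annotated start for all 9. Leaving out 1 library gave 0 to 123 calls for scGRO-seq against inAGTuC, 942 to 4829 for inAGTuC against AGTuC, and 1777 to 5708 and 2039 to 2080 for promoter over body in inAGTuC and scGRO-seq against AGTuC. The lowest of the last 3 came without AGTuC replicate 2 (without replicate 1 they were 2624, 2060 and 2080), and a lone AGTuC library was assumed to vary like the other groups. Adding batches outside the 10 gave 1478 calls (5587 without them) for scGRO-seq promoter over body. Median-of-ratios scaling moved the median gene in inAGTuC against AGTuC from -0.18 to 0.05 and calls in the higher direction from 49.9% to 62.8%, and no minimum of reads gave 65% with 7495 calls (5022 with the minimum). Pairs called were 204 with all deposited reads, 10 with permutation over all cells and 88495 with UMIs within 50 bases counted once, where the expectation still allows the merged repeats, against 0. Cells with any of the 9 genes were 47.4% with all reads and 21.6% within the first 10 kb. Signs turned for Atf4 promoter over body in inAGTuC against AGTuC (0.63 with all reads) and in scGRO-seq (-0.27 with the window from 500 bases before the start). With further batches the scGRO-seq ratio of Ddit3 was 0.52 and of Phgdh 0.34, and that of Phgdh was 0.06 with a 250-base promoter. Median-of-ratios scaling turned Asns (0.03, scGRO-seq against inAGTuC) and Psat1 (0.03, inAGTuC against AGTuC). With 1 library left out, scGRO-seq against inAGTuC ran from -0.34 to 0.05 for Asns (above 0 without inAGTuC replicate 1), -0.30 to 0.05 for Shmt2 and -1.03 to 0.03 for Mthfd2 (both without replicate 2). Likewise inAGTuC against AGTuC ran from -1.10 to 0.10 for Ddit3, -0.33 to 0.12 for Psat1 and -0.62 to 0.43 for Mthfd2 (all above 0 without replicate 4). Promoter over body in inAGTuC ran from -0.57 to 0.53 for Atf4 (above 0 without inAGTuC replicate 2, and at 0.13 without AGTuC replicate 2) and from -0.86 to 0.22 for Ddit3 (without inAGTuC replicate 1). The cause was not tested for any of these. With the experiment named in the labels as a random block, chosen after seeing the data, 3180 genes were called for inAGTuC against AGTuC and 0 for scGRO-seq against inAGTuC, and Shmt2 turned to 0.13 in the latter. No paired analysis was possible because replicate numbers do not link assays and, of the 10 batches, Exp208 alone shares its experiment with inAGTuC libraries. Few reads limit Ddit3, Trib3 and Chac1.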
